A study of Mus musculus with 4 samples.

Results

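The genes described here are 7 regulators of G protein signalling (Rgs1, Rgs2, Rgs3, Rgs10, Rgs14, Rgs16 and Rgs19) and 3 phosphodiesterases that break down cyclic AMP (Pde3b, Pde4b and Pde7a). They are the 10 named symbols with a row of status OK, meaning tested, in the authors' CD5 high against CD5 low comparison, and no named symbol was without one. The comparison held 7252 tested genes in all. They were selected on their symbol and tested status with the FPKM values, fold changes and q-values of this same comparison already known, so those values describe the genes here and support nothing beyond that.

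Effector T cells were profiled from NOD.Foxp3-GFP mice, which develop autoimmune diabetes and carry a green fluorescent reporter for Foxp3. The cells were either CD5 high or CD5 low, with 2 RNA sequencing libraries per group, both from mice of the same strain, reporter genotype and age range, 6 to 9 weeks. The design text speaks of islet cells and all 4 library titles begin with Isl, while the tissue label of each library names spleen besides pancreatic islets. The titles carry the numbers 3 and 4 in each group, and whether a number marks cells sorted from the same animals is not stated. Whether animals were pooled, and how effector T cells were gated, is not stated in the labels. CD5 is a surface protein of T cells that is widely read as a gauge of reactivity to self-peptides. The question of the comparison is how gene expression differs between effector T cells high and low in CD5. The labels give no measure of self-reactivity.

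Many signals that steer T cells, among them chemokines, sphingosine phosphate, prostaglandins and adenosine, reach the cell through receptors coupled to heterotrimeric G proteins. Rgs proteins speed the hydrolysis of GTP on G protein alpha subunits and so shorten the signal, which in lymphocytes limits the response to chemokines. Receptors coupled to Gs raise cyclic AMP and those coupled to Gi lower it. Cyclic AMP acts through protein kinase A to dampen T cell receptor signalling, and phosphodiesterases remove it.

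Each value below is the authors' single combined value for a group, in FPKM, the number of fragments relative to transcript length and to all mapped fragments, so levels are comparable between genes of different length. No SD or count of libraries can be attached to it, the depth behind it is unknown, and whether single libraries of the groups overlapped cannot be said. A gene is said to have risen or fallen only where the q-value of the authors' deposited table was under 0.05. By that rule 0.758% of all tested genes were called, 0.538% higher and 0.221% lower in CD5 high.

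The promoters of Rgs16 and Rgs2 are shown because these genes belong to the same subfamily, lie on the same chromosome and had their higher value in opposite groups. Only Rgs16 of this pair was called, and Rgs2 had a q of 0.638. A link between promoter letters and direction was not tested. The promoters were searched for the cyclic AMP response element, the motif bound by the transcription factor CREB. Each line gives the 250 bases before the RefSeq start site in build GRCm38.p6, 5′ to 3′ on the gene's strand. That of Rgs16 is chr1:153740103-153740352 on the plus strand and that of Rgs2 is chr1:144004150-144004399 on the minus strand. Capitals mark matches to the half-site TGACG or its reverse complement CGTCA.
Rgs16: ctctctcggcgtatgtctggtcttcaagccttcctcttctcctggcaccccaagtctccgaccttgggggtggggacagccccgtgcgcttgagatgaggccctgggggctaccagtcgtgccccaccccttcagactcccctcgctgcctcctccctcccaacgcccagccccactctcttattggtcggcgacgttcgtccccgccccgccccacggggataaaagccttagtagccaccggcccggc
Rgs2: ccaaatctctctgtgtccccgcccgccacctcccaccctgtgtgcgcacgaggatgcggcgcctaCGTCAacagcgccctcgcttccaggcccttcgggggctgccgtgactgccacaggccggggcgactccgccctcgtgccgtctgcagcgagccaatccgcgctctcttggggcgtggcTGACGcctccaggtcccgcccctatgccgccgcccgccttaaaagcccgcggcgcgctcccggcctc
The Rgs16 stretch held 0 half-sites and the Rgs2 stretch held 2. The full element TGACGTCA, which contains the half-site on each strand, was in neither. RefSeq promoter windows of 300 bases (250 before to 50 after a start) were found for 6 of the 10 genes, 12 windows in all. Of these windows 2 held a half-site, the one of Rgs2 and 1 of Pde4b, and 0 held the full element. Across all 32851 windows of the table, 20.8% held a half-site and 1.79% the full element. A match is a description of the letters and not a binding site. Rgs1, Rgs14, Pde3b and Pde7a had no entry.

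Rgs16 was the Rgs gene with the largest fold change, and the only one of the 7 called. The protein acts on Gi and Gq alpha subunits and is known as a brake on chemokine responses of activated T cells. Per the authors' deposited table, Rgs16 stood at 52.9 FPKM in CD5 low cells and 103 FPKM in CD5 high cells. The CD5 high value was 1.95-fold higher, a log2 fold change of 0.96 (q = 0.0110). Its p-value, 5e-05, was the smallest of the authors' deposited table and was shared by 33 genes. In such bulk values, a difference in the number of cells that express a gene and a difference in RNA per cell cannot be told apart. The gene lies on chromosome 1 at 153740353 to 153745468 (mm10) on the plus strand, and GENCODE M21 gives it 5 exons and a single transcript of 2339 bases. Of these bases 236 (10.1%) overlap the antisense gene Gm28513, and since the library kit does not mark strand, reads there cannot be assigned to either gene by strand.

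Pde3b was the other gene called, in the opposite direction. It encodes a phosphodiesterase that hydrolyses both cyclic AMP and cyclic GMP and is inhibited by the latter, best known from adipocytes and liver for its place in insulin signalling. Per the authors' deposited table it had 19.7 FPKM in CD5 low cells and 10.04 FPKM in CD5 high cells. The CD5 high value was 1.96-fold lower, a log2 fold change of -0.97 (q = 0.0253) and an unadjusted p-value of 0.00015 in the same table. Pde3b went from percentile 48.9 of tested genes in CD5 low to percentile 20.1 in CD5 high, the lowest place of the 10 genes in that group. It lies on chromosome 7 at 114415254 to 114537937 (mm10), with 16 exons in its coding transcript, and shares no exonic base with another GENCODE gene.

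Thus 1 of 7 Rgs genes rose and 1 of 3 phosphodiesterases fell, against the 0.538% and 0.221% of all tested genes given above. The genes were picked with this comparison known, so nothing is read from that contrast. Of the 10, 6 had their higher value in CD5 high and 4 in CD5 low, and none differed by as much as 2-fold. The median log2 fold change of the 10 was 0.21, beside -0.01 over the 7237 tested genes that have a fold change. At an unadjusted p under 0.05, 4 of the 10 passed, while 10.3% of all tested genes did.

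**Figure D1:**
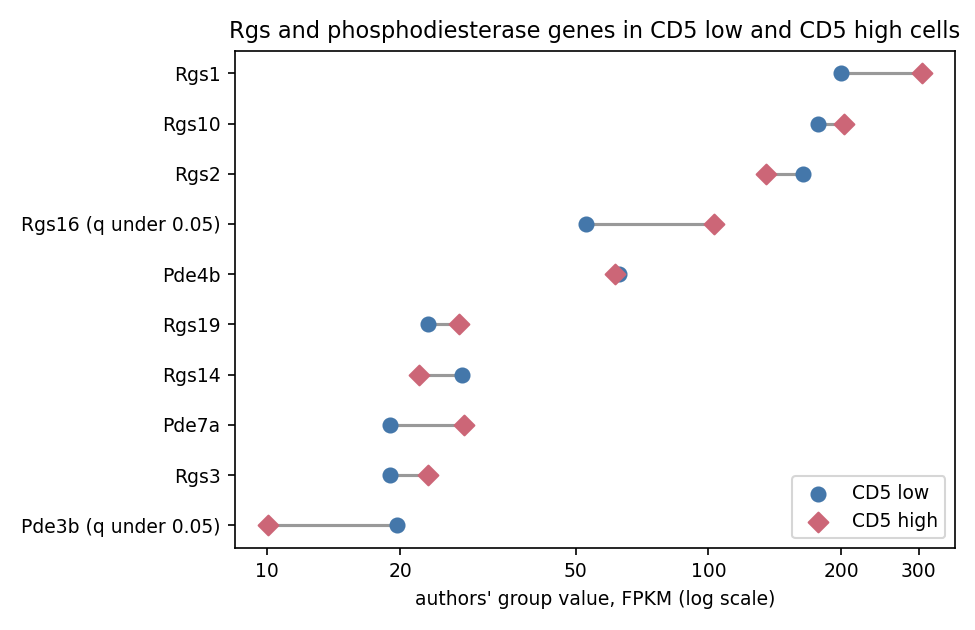
Authors' group values in FPKM on a log axis for the 10 genes, ordered by mean level, with circles for CD5 low and diamonds for CD5 high, and no error bars since each group has a single deposited value. Rgs1 is the highest in each group, and the widest gaps are those of Rgs16 (52.9 and 103 FPKM) and Pde3b (19.7 and 10.04 FPKM).

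The calls have limits that bear on each gene. Pde3b had a mean under 20 FPKM and is not among the genes when p-values are adjusted over rows of at least that mean, where Rgs16 had an adjusted p of 0.00712. The test statistics of the authors' deposited table were 2.46 for Rgs16 and -1.93 for Pde3b. Neither gene is called if these are read on a normal scale (adjusted p of 0.999982 for each). That reading was chosen after seeing the data, and the scale of the statistic is not stated. The deposited p-values were all whole multiples of 5e-05, and those of Rgs16 and Pde3b were not the normal tails of these statistics. The normal reading therefore cannot decide whether the calls are weak.

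Of 14 T cell markers 9 were tested and 0 were called, with Cd3e at 417 and 462 FPKM and Cd4 at 248 and 243 FPKM in low and high cells, per the authors' deposited table, while Cd8a had no row. Several marker lists of other cells also held called genes, though not every list lay in a single direction. The values do not show which cells the RNA of these genes came from. All 7 tested of 12 regulatory T cell markers were higher in CD5 high and 4 rose, their summed level was 393 FPKM in CD5 low cells and 789 FPKM in CD5 high cells, none was at 0, and Foxp3 stood at 1.10 and 12.3 FPKM (q = 0.298), per the authors' deposited table. As background, Foxp3 is known to repress Pde3b in mouse regulatory T cells, and whether that bears on the Pde3b values here was not tested. Of 26 macrophage, monocyte and dendritic cell markers 9 were tested, 8 were lower in CD5 high and 5 fell, with a sum of 1256 and 637 FPKM and Fcer1g listed at 0 in CD5 high, per the authors' deposited table. Of 15 endocrine islet markers 5 were tested, 3 higher and 2 lower in CD5 high, and 1 rose. Their sum of 321 and 2794 FPKM was carried in CD5 high by the insulin gene Ins2, at 26.7 and 2395 FPKM (q = 0.193), while the somatostatin gene Sst lay the other way, at 263 and 6.86 FPKM (q = 0.0714), per the authors' deposited table. Exocrine markers, 21 of 27 tested, were higher in 4 and lower in 17, summed to 2158 and 1935 FPKM and included 1 that fell, per the authors' deposited table. The part of these cells in the Rgs16 and Pde3b differences was not tested. Among B cell markers only Cd79b was tested, 0 of 6 NK cell markers were, and among endothelial, stromal and blood cell markers only Pecam1 was, and neither tested gene was called.

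Among the remaining genes of the R4 subfamily, the small Rgs proteins that consist of little beyond the Rgs domain, Rgs1 had the highest level. Rgs1 acts on Gi and Gq alpha subunits and restrains migration toward chemokines in B and T cells. The authors' deposited table lists it at 199.7 FPKM in CD5 low cells and 305 FPKM in CD5 high cells, a log2 fold change of 0.61. Its q of 0.105 was above the threshold, with an unadjusted p-value of 0.0014. Rgs1 was the most abundant of the 10 genes in each group, at percentile 94.2 of tested genes in CD5 low and 95.8 in CD5 high.

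Rgs2, which differs from its relatives in preferring Gq over Gi, had the reverse order. Its values per the authors' deposited table were 164 FPKM in CD5 low cells and 135 FPKM in CD5 high cells, a log2 fold change of -0.28 (q = 0.638). Rgs1 and Rgs2 lie on the same stretch of chromosome 1, with 241 kb between their deposited loci, and both are transcribed from the minus strand. Within these values the ratio of Rgs1 to Rgs2 was 1.22 in CD5 low and 2.25 in CD5 high, and that of Rgs16 to Rgs2 was 0.322 and 0.760. These ratios carry no error, and the differences between the genes were not tested.

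Rgs3, a longer protein with several isoforms, was near the middle of the tested genes, at percentile 47.0 in CD5 low and 55.3 in CD5 high. The authors' deposited table gives it 19.0 FPKM in CD5 low cells and 23.2 FPKM in CD5 high cells, a log2 fold change of 0.28 (q = 0.740). GENCODE M21 lists 17 transcripts for Rgs3, 8 of them coding, and the table holds a single value for the whole gene. Of all distinct 31-base stretches in Rgs3 transcripts, 12.5% also occur in transcripts of other genes, the highest share among the 10 genes. No 31-base stretch is shared between any pair of the 10, so reads of that length that match a transcript exactly cannot come from a second gene of this group.

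The R12 subfamily was represented by Rgs10 and Rgs14. Rgs10 is a small protein that acts on Gi alpha subunits and is abundant in immune cells. With 178 FPKM in CD5 low cells and 203 FPKM in CD5 high cells, per the authors' deposited table, it was the second most abundant of the 10 genes in each group (log2 fold change 0.19, q = 0.816). Rgs14 is a scaffold that adds a GoLoco motif, which holds Gi alpha in its GDP-bound form, and Ras-binding domains. For Rgs14 the authors' deposited table has 27.6 FPKM in CD5 low cells and 22.1 FPKM in CD5 high cells, a log2 fold change of -0.32 (q = 0.737). The level of Rgs10 was thus 6.44 times that of Rgs14 in CD5 low and 9.16 times in CD5 high. Rgs19, the only gene of the RZ subfamily with a row, acts on alpha subunits of the Gi class. It had 23.2 FPKM in CD5 low cells and 27.2 FPKM in CD5 high cells, per the authors' deposited table (log2 fold change 0.23, q = 0.862).

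Of 21 mouse Rgs genes looked for, 7 had a row in the table, and each of these was tested. They were 4 of 10 in the R4 subfamily, 2 of 3 in R12, 1 of 3 in RZ and 0 of 4 in R7, the subfamily known from neurons and photoreceptors, and Rgs22 had no row. Rgs13, Rgs18 and Rgs12 are among the genes without a row and are not analysed here. Every tested gene of the whole table reached at least 6.82 FPKM in 1 of the groups. Axin1 and Axin2, scaffolds of the Wnt pathway that carry a domain of the Rgs fold, were tested and not called. Axin1 stood at 13.0 and 9.90 FPKM (q = 0.696) and Axin2 at 13.5 and 14.3 FPKM (q = 0.952) in low and high cells, per the authors' deposited table.

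Summed over the 7 Rgs genes, the level was 664 FPKM in CD5 low cells and 818 FPKM in CD5 high cells, a ratio of 1.23. Rgs1, Rgs10 and Rgs2, in this order, were the most abundant in each group. The share of Rgs1 in the sum was 30.1% in CD5 low and 37.3% in CD5 high. Rgs16 made up 7.96% and 12.6%, and Rgs2 made up 24.7% and 16.5%. Among the genes under 30 FPKM the order differed between the groups, with Rgs14 above Rgs19 and Rgs3 in CD5 low and below them in CD5 high. None of those 3 was called, and without values per library their order cannot be told from spread.

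**Figure D2:**
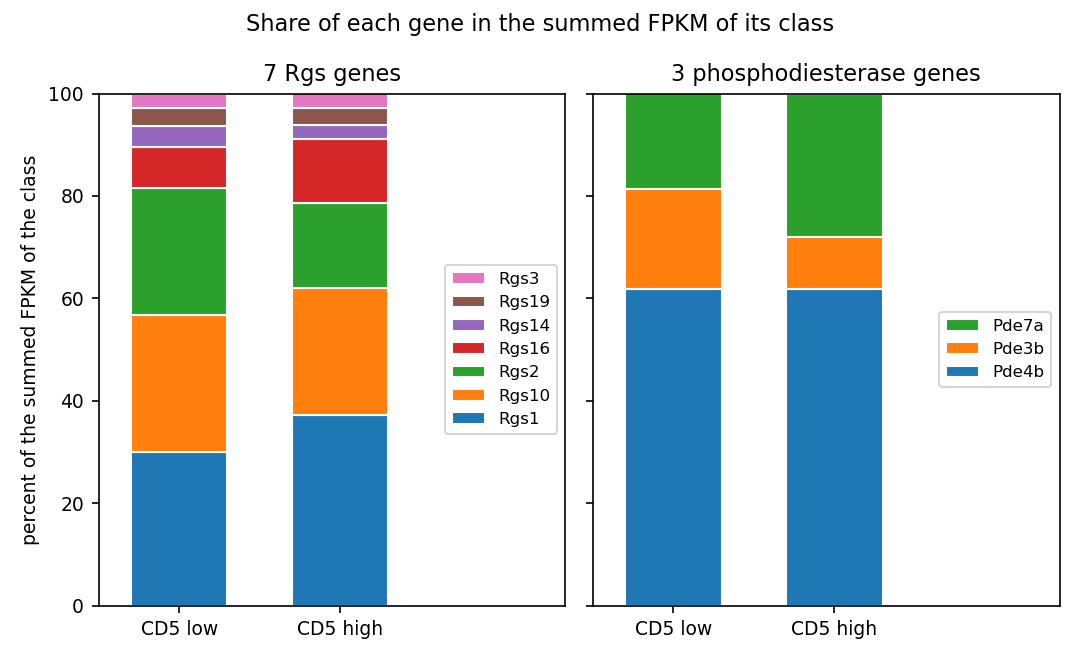
Percent of the summed FPKM of the 7 Rgs genes (left) and of the 3 phosphodiesterase genes (right) that each gene contributes in CD5 low and CD5 high, from the authors' group values without error. Rgs16 takes 7.96% of the Rgs sum in CD5 low and 12.6% in CD5 high, while Pde4b takes close to 61.8% of the phosphodiesterase sum in each group.

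The remaining phosphodiesterases were not called. Pde4b, a cyclic AMP-specific enzyme that is recruited to the activated T cell receptor complex when CD28 is engaged, was the most abundant of the 3. The authors' deposited table lists it at 62.7 FPKM in CD5 low cells and 61.4 FPKM in CD5 high cells, a log2 fold change of -0.03 (q = 0.977). Pde7a is a cyclic AMP-specific enzyme of high affinity that is known to be induced in activated T cells. Its level was 19.0 FPKM in CD5 low cells and 27.9 FPKM in CD5 high cells, a log2 fold change of 0.56, per the authors' deposited table (p = 0.0283, q = 0.408), so it was not called. Pde7a and Pde3b were thus at near-equal levels in CD5 low (a ratio of 0.961), while Pde7a was 2.78 times as high in CD5 high. Like the Rgs ratios, these carry no error, and the difference between Pde7a and Pde3b was not tested. The sum of the 3 was 101 FPKM in CD5 low cells and 99.3 FPKM in CD5 high cells. Pde4b, on chromosome 4, has 9 coding transcripts in GENCODE M21, which the single gene value does not separate.

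Of 24 genes in the list of cyclic nucleotide phosphodiesterases, 6 had a row and were tested, and Pde3b was the only one called. Pde4d, a cyclic AMP-specific relative of Pde4b, was listed at 11.2 and 8.17 FPKM (q = 0.565) in low and high cells, per the authors' deposited table. Pde2a, which hydrolyses cyclic AMP and is stimulated by cyclic GMP, was at 8.44 and 8.84 FPKM (q = 0.972), per the authors' deposited table. Pde6d, which despite its name is a carrier of prenylated proteins, was at 13.4 and 7.81 FPKM (q = 0.685), per the authors' deposited table. Pde12, a mitochondrial enzyme that acts on RNA and not on cyclic nucleotides, had 19.5 and 22.3 FPKM (q = 0.848), per the authors' deposited table. Pde8a and Pde4a, cyclic AMP-specific enzymes as well, had no row.

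**Figure D3:**
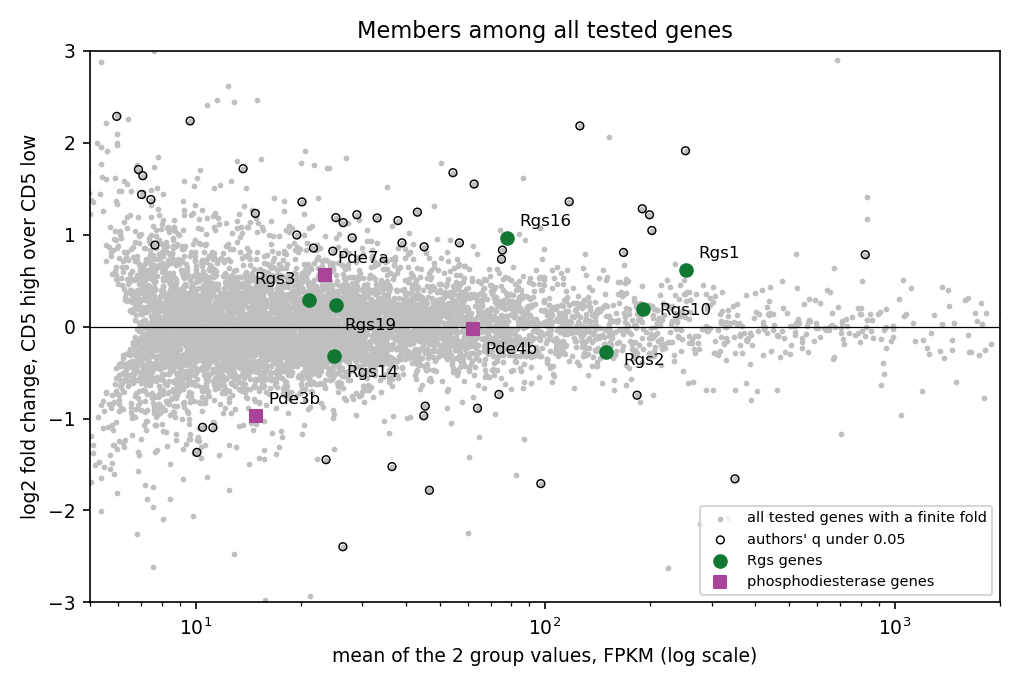
Log2 fold change of CD5 high over CD5 low against mean FPKM (log axis) for tested genes with a finite fold change (grey), with genes at q under 0.05 ringed, Rgs genes as green circles and phosphodiesterases as purple squares. A further 108 genes lie outside the axes. Rgs16 (0.96) and Pde3b (-0.97) rank 356 and 345 of the 7237 plotted or outlying genes by size of fold change, and the other 8 lie closer to 0.

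The wider pathway was followed with 9 lists, from receptors to transcription factors, in which 77 tested genes were not among the 10. None of the 77 was called at q under 0.05, 40 had their higher value in CD5 high and 37 in CD5 low, and their median log2 fold change was 0.01. At an unadjusted p under 0.05 there were 11 of them (14.3%), beside 10.3% of all tested genes.

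Of Gi-coupled receptors, 16 were tested, 9 higher and 7 lower in CD5 high, with a median log2 fold change of 0.02. Cxcr4, the receptor for the chemokine Cxcl12, was the most abundant, with 287 FPKM in CD5 low cells and 289 FPKM in CD5 high cells (q = 0.990), per the authors' deposited table. Ccr7, which guides T cells to lymph nodes, had 210.0 and 142 FPKM (q = 0.169), per the authors' deposited table. The lowest p-value of the list was that of Cxcr5, the follicle-homing receptor, at 12.2 and 24.8 FPKM (q = 0.0975), per the authors' deposited table. No receptor of this list was called.

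Gs-coupled receptors had 5 tested genes, 3 higher and 2 lower. Ptger2, a prostaglandin E2 receptor, had the smallest q-value of all 77 genes, at 8.69 FPKM in CD5 low cells and 18.4 FPKM in CD5 high cells (q = 0.0747), per the authors' deposited table. The related receptor gene Ptger4 was higher in level and near equal between groups, with 53.3 and 55.5 FPKM (q = 0.961), per the authors' deposited table. The adenosine receptor gene Adora2a had no row.

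The G protein subunits, 13 of them tested, were higher in CD5 high in 10 and lower in 3, with a median log2 fold change of 0.12 and 0 calls. Gng5, a gamma subunit, was the most abundant at 589 and 501 FPKM (q = 0.743), and Gnas, the alpha subunit that stimulates adenylyl cyclase, had 205 and 242 FPKM (q = 0.714), in low and high cells, per the authors' deposited table. The lowest p-value belonged to the gamma subunit Gng2, at 14.2 and 22.1 FPKM (p = 0.0171, q = 0.356), per the authors' deposited table, followed by the beta subunit Gnb4 at 8.45 and 12.2 FPKM (q = 0.638). Adcy7 was the only adenylyl cyclase with a row, at 91.3 and 81.6 FPKM (q = 0.810), per the authors' deposited table. Cap1, a cyclase-associated actin-binding protein, had 67.7 and 87.0 FPKM (q = 0.559) there.

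Downstream of cyclic AMP, 13 genes of protein kinase A, Epac and their anchoring proteins were tested, 4 higher and 9 lower, with a median of -0.14. Prkar1a, a regulatory subunit of protein kinase A, was the most abundant, with 221 FPKM in CD5 low cells and 288 FPKM in CD5 high cells (p = 0.0315, q = 0.426), per the authors' deposited table. Rapgef4, which encodes the cyclic AMP-gated exchange factor Epac2, had 8.42 and 4.98 FPKM (p = 0.0433, q = 0.464), per the authors' deposited table. The anchoring protein Akap8l stood at 75.8 and 72.4 FPKM (q = 0.950), per the authors' deposited table.

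In the list of CREB family members and coactivators, 5 of 11 tested genes were higher and 6 lower, with a median of -0.08. Crem, a CREB relative that includes repressor forms induced by cyclic AMP, had 27.6 FPKM in CD5 low cells and 42.8 FPKM in CD5 high cells (p = 0.0171, q = 0.356), per the authors' deposited table. Sik1, a kinase that restrains CREB coactivators, had 36.8 and 28.1 FPKM (q = 0.534), and the histone acetyltransferase Crebbp had 40.9 and 38.6 FPKM (q = 0.922), per the authors' deposited table. Csk, the kinase through which protein kinase A restrains Lck, had 90.8 and 103 FPKM (q = 0.798), per the authors' deposited table.

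Receptor kinases, arrestins and other G protein regulators numbered 12 tested genes, 6 higher and 6 lower, with 0 called and a median of -0.02. The ribosome-associated scaffold Gnb2l1, now named Rack1, was the most abundant at 1930 and 1563 FPKM (q = 0.559), and Arhgef1, a guanine nucleotide exchange factor downstream of G12 and G13, had 162 and 156 FPKM (q = 0.950), in low and high cells, per the authors' deposited table. Elmo1, a partner of the Rac activator Dock2, had 41.2 and 51.4 FPKM (q = 0.593) there.

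**Figure D4:**
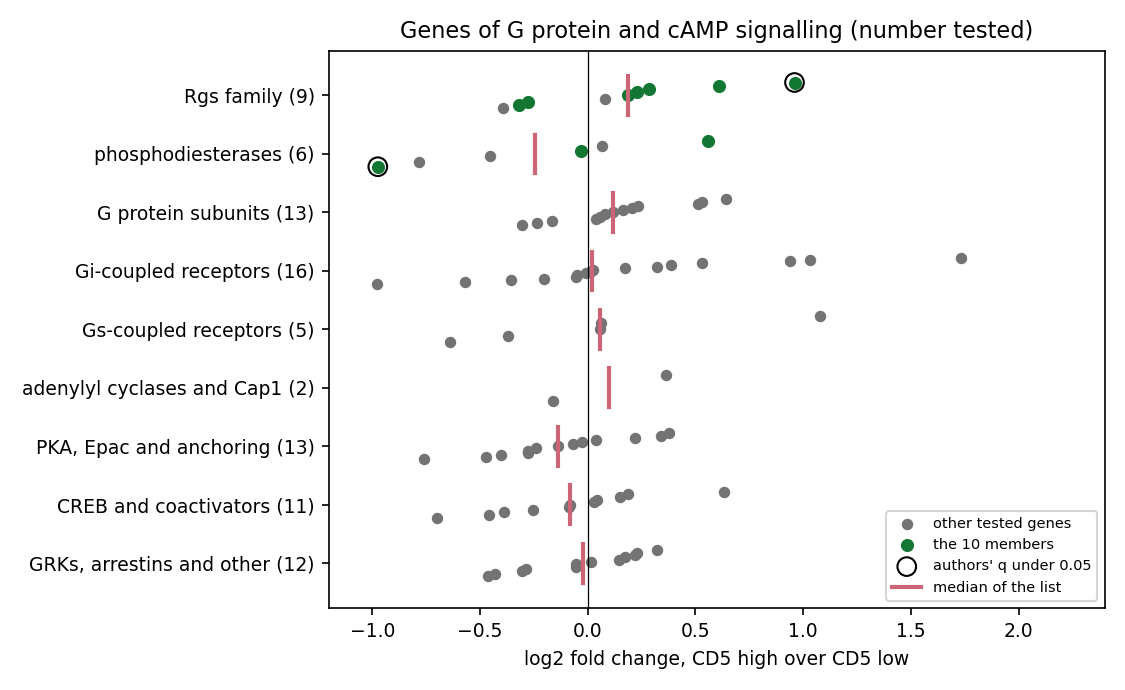
Log2 fold change of CD5 high over CD5 low for each tested gene of 9 lists of G protein and cyclic AMP signalling, with the number tested in brackets, the 10 described genes in green, genes at q under 0.05 ringed and list medians as red bars. Rgs16 (0.96) and Pde3b (-0.97) are the only ringed genes.

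By position, neither called gene had a called neighbour among tested genes within 250 kb. Rgs16 had 2 such neighbours, each with its lower value in CD5 high. Among them was Glul, glutamine synthetase, at 29.5 and 21.9 FPKM (q = 0.580) in low and high cells, per the authors' deposited table. Pde3b had 2 as well, the proteasome subunit Psma1 at 64.5 and 80.5 FPKM (q = 0.695) and the coatomer subunit Copb1 at 55.0 and 48.2 FPKM (q = 0.803), per the authors' deposited table.

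The 3 genes whose values in CD5 low and CD5 high lay nearest to those of Rgs16, by distance on log2 FPKM over the 2 group values, were Trim8, Tmem160 and 1700019D03Rik. Trim8 was at 54.3 and 96.7 FPKM (distance 0.0975), Tmem160 at 48.5 and 100.4 FPKM (distance 0.130) and 1700019D03Rik at 55.8 and 113 FPKM (distance 0.152), per the authors' deposited table. A likeness over 2 values is a weak one, and Trim8 alone of the 3 was called (q = 0.0110).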

How the data were processed

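The values come from 1 table of a gene test with Cuffdiff column names, per the file headers. TopHat 1.0.0, Cufflinks and build mm10 are named in the submitters' processing notes; no source used here gives the annotation or says how libraries were combined. Amplified cDNA of lysed cells went into Nextera XT libraries, per the labels' protocols. The authors' columns for a gene are an FPKM value per group, the log2 fold change, a test statistic (a score) and p-values before and after adjustment (q-values). Their log2 fold change is that of the FPKM ratio itself, without a pseudocount, to within 5.1e-05.

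Of 7404 rows, 7252 had the status OK, and 1 further line is not analysed here. No test of libraries was run. The authors' q under 0.05 is the call (other adjustments of their p-values and a normal reading of their statistic were tried as alternatives), and it matched their own flag in all 7252 tested rows. The labels do not say that libraries came from separate animals, so these p-values may measure technical spread, and no source used here says whether the authors' test took the shared title numbers into account. Because no values per library were held in the table, the planned limma fit, the leaving out of libraries and the replicate block were not run.

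The 10 genes and the lists were chosen with earlier results of these data known. Named genes were the 10, further Rgs and phosphodiesterase genes with a row, called list genes, and in each pathway list the 2 highest in mean FPKM and the 2 lowest in p; called marker genes of other cells are given as counts. Some genes that this rule names are not reported here. Positions, exon overlaps and shared 31-base stretches came from GENCODE M21 (GRCm38, the build of mm10), and promoters from RefSeq (GRCm38.p6), in Python 3.11.15 with pandas 2.3.3, numpy 2.4.6 and scipy 1.17.1. The adjustment and the quantile normalization were tested on simulated data.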

Additional observations from a re-analysis of the deposited data

How the results depend on the processing

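No paired analysis was possible because the deposited columns hold groups and not libraries, although the titles share the numbers 3 and 4 across groups, and libraries could not be left out in turn for the same reason. Across pseudocounts of 1 and 5, centring on the median of all tested genes and quantile normalization, the fold changes of the 10 genes kept their direction, which only quantile normalization could have turned, since a pseudocount cannot change the order of a pair of values and centring moved each gene by less than the smallest fold change. Of the recomputed values 1 moved by over 1.5 times: Pde4b under quantile normalization, at -0.05. The median of the 10 ranged from 0.19 to 0.23 over these settings and when restricted to a mean of at least 20 FPKM. The count of called genes among the 10 was 2 and stayed at 2 at q under 0.1, a cut that cannot lose a call. It also stayed at 2 with marker genes of other cells, regulatory T cells included, left out before adjustment. Leaving rows out changes only the adjustment and not the FPKM or p-values of the 10, so that setting cannot speak to RNA of other cells. The count was 4 at an unadjusted p under 0.05. It was 1 when adjusted over the 3703 genes with a mean of at least 20 FPKM, which leaves Pde3b out by construction. It was 0 when the authors' test statistic was read on a normal scale and adjusted, a setting chosen after seeing the data, by which 14 of 7237 genes were called in place of 55. No source used here states the scale of the authors' statistic, and the cause was not tested. In the pathway lists, the count of called genes outside the 10 was 0 at q under 0.05 and 11 at an unadjusted p under 0.05. The depth is unknown, so no limit of detection can be set for the genes without a row.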

Other observations

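The p-values in the authors' deposited table were all whole multiples of 5e-05 and stood apart from the test statistics beside them. For Rgs16 the statistic of 2.46 has a two-sided normal tail of 0.0139, while the deposited p was 5e-05. For Pde3b the statistic of -1.93 has a normal tail of 0.0536 and the deposited p was 0.00015. Rgs1, with a statistic of 1.84 and a deposited p of 0.0014, has a normal tail of 0.0656.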
